A study of Mus musculus with 8 samples.

Results

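The Kcn genes encode the subunits of potassium channels, and their chromatin in cold-exposed brown adipose tissue (BAT) was examined in the ATAC-seq peak list. Members were all autosomal genes with a curated RefSeq mRNA (mm10) whose symbol starts with Kcn, which gave 92 of 20021 such genes. Kcnd1 and Kcne1l on chromosome X were left out by this rule. ATAC-seq detects DNA that the Tn5 transposase can reach, and a summit is the highest point of a peak of such reads. The peaks come from 4 libraries of BAT nuclei, 2 of WT mice and 2 of Dot1L-BKO mice, with 1 mouse for each library. The WT mice were Dot1l f/f littermates, and the Dot1L-BKO mice carried the same floxed alleles together with Ucp1-Cre, so that Dot1l was deleted in Ucp1+ cells while nuclei of all BAT cell types entered the assay. All mice were fed chow to 12 weeks of age and kept at 4°C for 4 hr before collection. The authors' deposited list gives 1 position for each of 32173 peaks with the −log10 of its MACS2 q-value, called the score here. It has no value for any single library, so that the depth is unknown, the spread between replicates cannot be given and the genotypes were not compared. Which libraries served as the control in peak calling is not given in the sources used here. If they were those of Dot1L-BKO mice, a summit would mark more reads in WT than in Dot1L-BKO mice, and an open site alike in both could be missing. A promoter without a summit is therefore not shown to be closed. In a bulk tissue list, a site open in few cells and a site weakly open in many cells cannot be told apart.

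Potassium channels let K+ leave the cell and set the resting membrane potential, and they end the depolarization of excitable cells. Voltage-gated channels (Kcna to Kcnd, Kcnh, Kcnq) open on depolarization and are best known from neurons and heart, while inward rectifiers (Kcnj) hold the resting potential. The K2P channels (Kcnk), whose subunits carry a pair of pore loops, conduct background current. Slo and SK channels (Kcnma, Kcnn, Kcnt, Kcnu) respond to internal signals such as calcium. In brown adipocytes, Kcnk3 (TASK1) is known as a background channel that opposes the depolarization brought about by adrenergic stimulation.

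Few Kcn genes had a summit at their promoters in the list. A promoter summit, which is a summit within 1 kb of a transcription start site (TSS) of the gene, was present at 13 of 92 members (14.1%, 95% Wilson interval 8.45% to 22.7%). The share over all 20021 autosomal genes was 46.8%. Intervals here and below take in counting error alone. Among the 13 were Kcnab2, Kcnab3, Kcng3, Kcnh2, Kcnk2, Kcnk3, Kcnk6, Kcnk7, Kcnk13, Kcnn1, Kcnn4 and Kcns3, and 79 members had none. Among members with a promoter summit, the best score had a median of 4.16, against 10.9 over all genes with one. Of the 13, 1 member, Kcnk3, reached a score of at least 10, a share of 7.69% beside 52.3% over all genes with a promoter summit. The members' promoter summits also lay off the TSS. The closest one was within 100 bp of a TSS at 1 of 13 members, Kcnn1, whereas it was so close at 39.4% of all genes with a promoter summit.

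**Figure D1:**
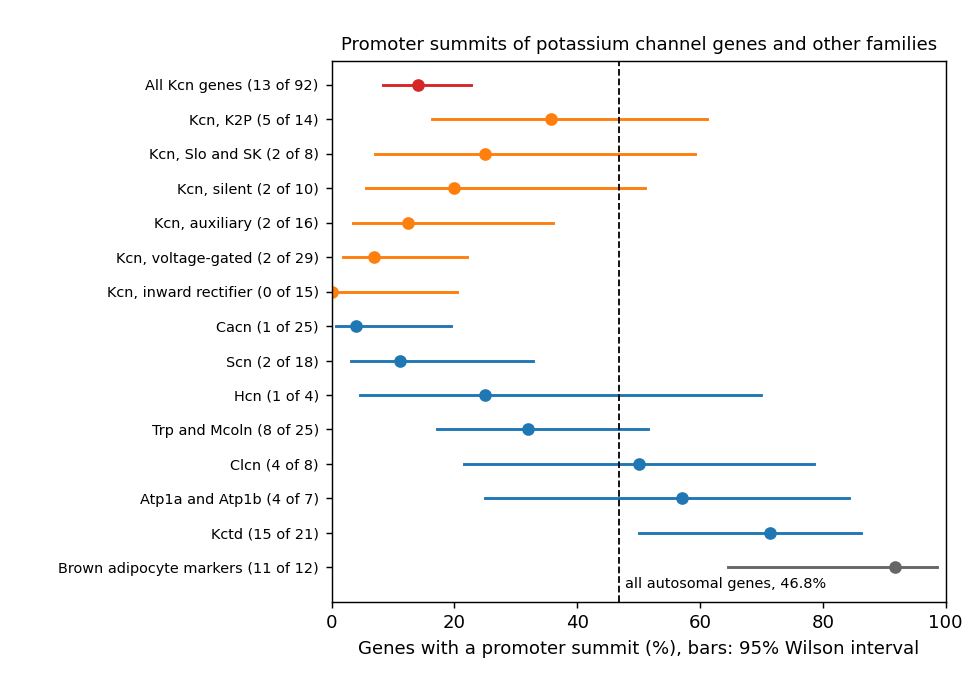
Share of genes with a promoter summit (x axis, percent) for all Kcn genes (red), their classes (orange), other ion transport families (blue) and brown adipocyte markers (grey), with counts of genes at the left and 95% Wilson intervals as bars. The Kcn genes lie at 14.1%, left of the dashed line at 46.8% for all autosomal genes, with K2P genes at 35.7% and inward rectifiers at 0, and the intervals of the classes overlap.

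The tissue label was checked against markers. Of 12 brown adipocyte markers 11 had a promoter summit (Adrb3 did not), including Ucp1, Cidea and Adipoq. None of 9 autosomal neuronal markers such as Snap25 and Syt1 had one, and none of 8 cardiac markers such as Myh6 and Nppa. Of the other cell types of the tissue, 1 of 4 endothelial markers (Cdh5), 1 of 6 leukocyte markers (Cd68), 1 of 4 smooth muscle markers (Cnn1) and 1 of 7 skeletal muscle markers (Mylpf) had one.

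Kcnk3 had the highest promoter score and the most body summits of all 92 members. With a promoter window of 500 bp in place of 1 kb, Kcnk3 had no promoter summit. The gene spans 30588170 to 30625270 of chromosome 5 (plus strand), with 1 TSS and a length of 37.1 kb. Its strongest summit, at 30587279, was 891 bp upstream of the TSS and its score of 36.4 was number 1130 in the order of all 32173 summits. Of all autosomal genes with a promoter summit, 969 (10.3%) had a best score at least as high. This position is intergenic among mRNAs, but it was 1340 bp downstream of the start of the noncoding gene Gm9899. That gene starts at 30588619 on the minus strand within Kcnk3. A second promoter summit at 30588829, with a score of 7.12, was 659 bp downstream of the Kcnk3 TSS in the intron, and at −210 bp (upstream) from the Gm9899 start. Without strand in the assay, open chromatin there cannot be given to Kcnk3 or to Gm9899.

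Within the Kcnk3 gene body there were 18 summits, the second promoter summit included. Of these 16 lay in its intron and 2 in exon sequence at the 3′ end. They were spaced by a median of 1465 bp, with gaps from 943 to 6703 bp. Their scores ran from 1.54 to 11.5 with a median of 4.16, and 5 of them reached a score of 5. The strongest were at 30605237 (17.1 kb downstream of the TSS, score 11.5), at 30618126 (29956 bp, score 10.9) and at 30594000 (5.83 kb, score 7.58). Kcnk3 was the shortest of the 45 autosomal genes that held at least 18 body summits. Among the 9093 autosomal genes of 20 kb or more it ranked 10 by summits per length, at 48.5 per 100 kb. The row of summits went on past the gene's end, where 4 more lay at 37.2 to 40.7 kb from the TSS, the strongest at 30626476 with a score of 8.45.

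Within 50 kb of the Kcnk3 TSS there were 26 summits, and 288 autosomal genes (1.44%) had at least as many. Cib4 was the sole other gene with an mRNA TSS in that span. For 16 of the 26 summits the nearest mRNA TSS was that of Kcnk3, and for the other 10 it was that of Cib4 or of Slc35f6, which starts farther downstream. Upstream, 4 summits were found, at −0.891, −13.7, −15.2 and −36.7 kb, the last with a score of 19.1 and nearest to Cib4.

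**Figure D2:**
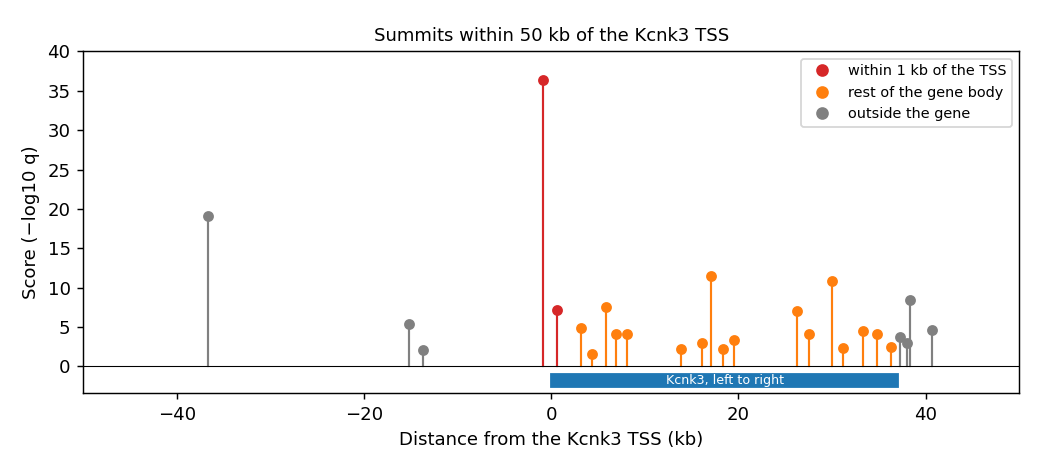
Summits within 50 kb of the Kcnk3 TSS, with distance from the TSS in kb on the x axis and the score (−log10 q) on the y axis, and the gene drawn as a blue bar. The summit at −0.891 kb (36.4) stands above the row of 18 summits across the gene, which run from 1.54 to 11.5.

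Every other K2P gene held at most 2 body summits, while Kcnk7 and Kcnk4 had more summits than Kcnk3 within 50 kb. Kcnk2 (TREK1), a mechanosensitive background channel, had 1 promoter summit, 150 bp upstream of one of its 4 TSSs, with a score of 3.32, and this summit was also 806 bp from the start of the noncoding gene A430027H14Rik. Kcnk13 had 1 at 447 bp downstream (5.55), Kcnk7 1 at 389 bp downstream (5.32) and Kcnk6 1 at 349 bp downstream in an exon (2.15). Kcnk4, a channel close to Kcnk2 in function, had none within 1 kb, and its closest was at 1773 bp downstream in an exon (2.15). Kcnk9 (TASK3), the nearest relative of Kcnk3 by function, had 1 intronic summit at 24.0 kb (1.73). Kcnk16 had 1 summit within 50 kb (4.16), at the TSS of Nudt13, and none in its promoter or gene body. Kcnk1, Kcnk5, Kcnk10, Kcnk12, Kcnk15 and Kcnk18 lacked any summit, both in the gene body and within 50 kb. In all, 5 of 14 K2P genes had a promoter summit (35.7%, Wilson interval 16.3% to 61.2%). Without summits on masked repeats (a choice made after seeing the data) it was 3 of 14, beside 46.0% of all genes. With a promoter from 1 kb upstream to 100 bp downstream it was 2 of 14, beside 36.4%. At a score of at least 5 it was 3 of 14, beside 37.5%, and at a score of at least 10 it was 1 of 14, Kcnk3, beside 24.5%. The K2P genes held 25 body summits, 18 of them in Kcnk3.

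The plot of promoter summits by distance gives their positions. Of the 16 promoter summits of the family, 7 lay upstream and 9 downstream of a TSS. To show the DNA at such sites, the 101 bases centred on the summit are printed for 5 members as examples. These were chosen after their values were seen. Their windows hold no mRNA exon, and their genes have an entry in the RefSeq promoter table. Kcnk3, Kcnk6 and Kcnab3 have no such entry and are not printed. Sequences are the forward strand of GRCm38 (mm10) from RefSeq, with short motifs in capitals where any was found. The motifs are listed further on.
Kcnk2 promoter summit, chr1:189343807-189343907: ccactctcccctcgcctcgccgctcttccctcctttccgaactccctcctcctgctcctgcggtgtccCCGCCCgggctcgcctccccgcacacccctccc
Kcnk13 promoter summit, chr12:99964896-99964996: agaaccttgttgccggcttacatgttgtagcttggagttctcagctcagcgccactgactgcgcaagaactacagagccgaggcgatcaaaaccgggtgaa
Kcnk7 promoter summit, chr19:5704810-5704910: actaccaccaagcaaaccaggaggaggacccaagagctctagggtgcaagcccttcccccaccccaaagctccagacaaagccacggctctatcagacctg
Kcns3 promoter summit, chr12:11149643-11149743: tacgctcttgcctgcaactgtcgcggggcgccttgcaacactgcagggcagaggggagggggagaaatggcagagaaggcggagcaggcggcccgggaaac
Kcng3 promoter summit, chr17:83632161-83632261: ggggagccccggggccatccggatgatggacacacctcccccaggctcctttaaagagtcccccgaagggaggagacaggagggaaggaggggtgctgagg
Of these 5 windows 1 held a motif, the SP pattern at Kcnk2. Of the windows at Kcnh2 and Kcnn4, which meet the same rule and are not printed, that of Kcnh2 held the SP pattern. In the wider span of 100 bp on each side, SP lay at 6 of 14 promoter summits outside Kcnk3 (42.9%), Kcng3 among them. The share over all autosomal summits was 20.5%. The Kcnk2, Kcnk7 and Kcns3 summits lay on bases that the genome annotation masks as repeats.

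**Figure D3:**
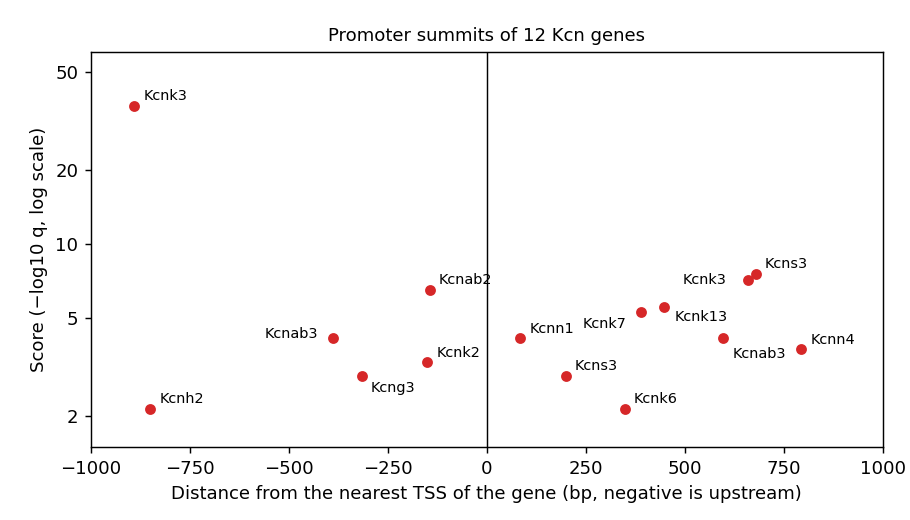
Promoter summits of the 12 members named above, with distance from the nearest TSS of the gene in bp on the x axis (negative is upstream) and the score on a log axis. Kcnk3 lies at the top left at −891 bp and 36.4, and every other summit scores between 2.15 and 7.58.

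Of Slo and SK channel genes, 2 of 8 had a promoter summit (25.0%, Wilson interval 7.15% to 59.1%), beside 46.8% of all genes. None did at a score of at least 5, beside 37.5%. Kcnn1, a small-conductance calcium-activated channel best known from brain, had a promoter summit 85 bp downstream of a TSS in an exon, with a score of 4.16. Kcnn4, the intermediate-conductance channel of blood cells and epithelia, had 1 at 794 bp downstream (3.75) and another in an intron at 4.93 kb (3.76). Kcnn3 had no summit within 50 kb of its TSS, but 1 intronic summit at 58.8 kb scored 14.0, the third highest score among the body and promoter summits of the family. Kcnma1, the large-conductance BK channel, had no summit along its 706 kb, and the nearest one was 319 kb from its TSS. Kcnn2, Kcnt1 and Kcnt2 lacked summits in the gene body and within 50 kb as well.

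Among voltage-gated channels, 2 of 29 genes had a promoter summit (6.90%, Wilson interval 1.91% to 22.0%), beside 46.8% of all genes. None did at a score of at least 5, beside 37.5%. Kcnh2 (hERG), which repolarizes the heart, had its summit at 850 bp upstream (2.15). Kcna5 had 2 summits within 50 kb, with scores of 7.43 and 2.53, and none in its promoter or gene body. Kcna3, Kcnc1 and Kcnd2 lacked summits both in the gene body and within 50 kb, and their nearest summits were 94.7, 228 and 589 kb away. The silent subunits, which do not form channels alone and modify other voltage-gated subunits, had a promoter summit at 2 of 10 genes, Kcng3 (2.92) and Kcns3 (7.58 and 2.92).

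No inward rectifier gene had a promoter summit or a body summit, 0 of 15, with an upper Wilson limit of 20.4% for each. Over all autosomal genes the shares were 46.8% and 41.2%. With a promoter window of 5 kb it was 1 of 15, Kcnj14, beside 51.8% of all genes. The 15 include Kcnj8 and Kcnj11, the pore subunits of ATP-sensitive channels, and Kcnj2, which sets the resting potential of muscle. The nearest summit to Kcnj2 was 598 kb away and the nearest to Kcnj8 63.6 kb away, while Kcnj11 had 1 summit within 50 kb, with a score of 1.91.

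Auxiliary and pore-forming subunits had shares with overlapping intervals. A promoter summit was present at 2 of 16 auxiliary genes (12.5%, Wilson interval 3.50% to 36.0%) and at 11 of 76 pore-forming genes (14.5%, 8.28% to 24.1%). Both auxiliary genes were cytoplasmic beta subunits of Kcna channels. Kcnab2 had 1 summit at −144 bp (6.53), which lay nearer to the TSS of Nphp4, at 45 bp. Kcnab3 had 2, at 389 bp upstream and 597 bp downstream, both with 4.16. The 4 Kcne genes and the 4 Kcnip genes, which encode modulators of Kcnq and Kcnd channels among others, had none.

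In gene bodies the family held 64 summits, of which 54 were in introns and 10 in exons. At least 1 body summit was present at 29 of 92 members (31.5%, Wilson interval 22.9% to 41.6%), beside 41.2% of all autosomal genes. There was 1 body summit in 16 members, 2 in 8 members (Kcnab3, Kcnh2, Kcnh3, Kcnh6, Kcnip2, Kcnk4, Kcnn4 and Kcns3) and 3 in 3 members (Kcnab1, Kcnh1 and Kcnn1). Kcnq1 held 5 and Kcnk3 held 18. Many channel genes are long, with a median of 32.2 kb against 16.9 kb over all genes, so that counts were also taken per length. Members had 0.609 summits per 100 kb of gene body, and 0.440 without Kcnk3, against 1.98 over all genes. Among the 23 members of 100 kb or more the density was 0.185, against 0.783 over all 2207 such genes. Among the 32 members of 20 to 100 kb it was 2.37, against 2.56 over all 6886 such genes, and it was 1.21 without Kcnk3. Among the 37 members under 20 kb it was 3.45, against 7.78. Leaving out summits within 1 kb of any TSS, members of 20 to 100 kb had 2.04, against 1.78 over all such genes. It was 0.944 without Kcnk3. Members then had 0.174 against 0.658 at 100 kb or more, 2.01 against 4.41 under 20 kb and 0.505 against 1.35 over all lengths.

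**Figure D4:**
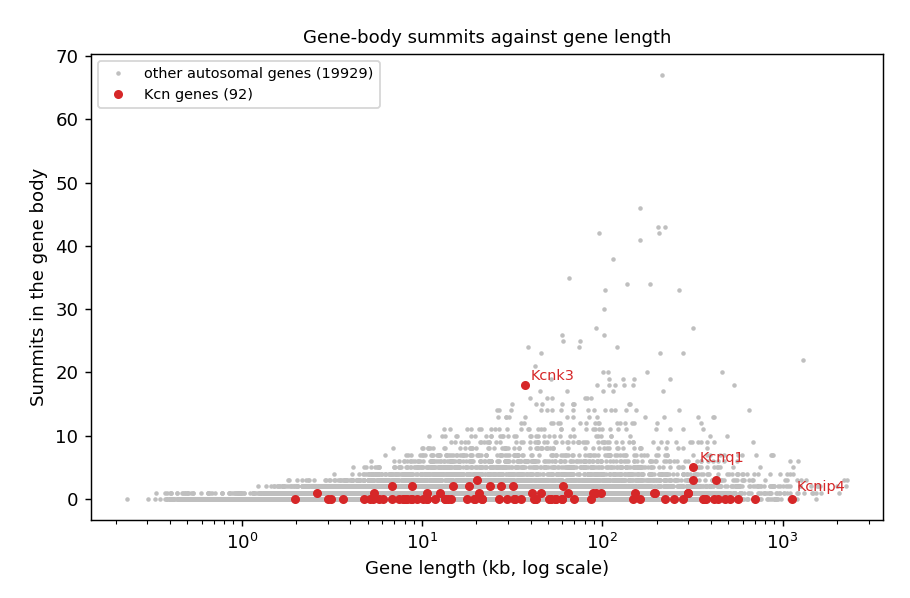
Summits in the gene body (y axis) against gene length in kb (x axis, log scale) for 92 Kcn genes (red) and all other autosomal genes (grey). Kcnk3 holds 18 summits at 37.1 kb, Kcnq1 holds 5 at 320 kb, and the other members hold 3 or fewer, Kcnip4 with none at 1135 kb.

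Kcnq1, the cardiac and epithelial channel, showed its strongest body summit away from its own TSS. At 143296638 on chromosome 7, with a score of 20.2, it lay 189 kb into the gene and at −91 bp (upstream) from the start of Kcnq1ot1, the imprinted antisense RNA that is transcribed within Kcnq1. The other 4 body summits of Kcnq1 scored from 1.71 to 6.53. The strongest intronic summits outside Kcnk3 and Kcnq1 were those of Kcnn3 and Kcnc4, a fast-inactivating channel, at 58.8 and 11.9 kb from the TSS with scores of 14.0 and 11.5. Their windows are shown as the intronic sites of highest score outside Kcnk3 and Kcnq1, and both lie in no masked repeat.
Kcnn3 intronic summit, chr3:89578947-89579047: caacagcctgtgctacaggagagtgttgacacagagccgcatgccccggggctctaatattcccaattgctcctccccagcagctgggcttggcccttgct
Kcnc4 intronic summit, chr3:107446992-107447092: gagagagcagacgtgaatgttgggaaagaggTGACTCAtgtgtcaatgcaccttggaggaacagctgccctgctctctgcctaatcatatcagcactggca
The Kcnc4 window held an AP-1 pattern. In the wider span of 100 bp on each side, 6.44% of all autosomal summits had this pattern. The Kcnn3 window held none of the motifs.

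A part of the remaining body summits lay in repeated sequence. Of the 37 body summits outside Kcnk3 that were over 1 kb from the gene's TSSs, 11 (29.7%) were on masked repeat bases, beside 12.2% of all 31729 autosomal summits, while in Kcnk3 it was 1 of 19 body or promoter summits. For 11 of the 37, the 101-base window shared a run of 20 bases with a window at another summit in the list, beside 10.3% of all autosomal summits. Counting also windows in which such a run was repeated, 13 of 37 (35.1%) had one of these features, beside 17.9%. The windows below are shown because each has a near copy at another summit of the family. The first is a tandem repeat with a unit of 48 bp, and a further summit of Kcnh1 lay in the same repeat. The others are from genes on chromosomes 1 and 3 and match at 84 of 90 aligned bases.
Kcnh1 intronic summit in a tandem repeat, chr1:192231312-192231412: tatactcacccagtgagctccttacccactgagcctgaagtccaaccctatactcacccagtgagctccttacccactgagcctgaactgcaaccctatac
Kcnh1 intronic summit, chr1:192471366-192471466: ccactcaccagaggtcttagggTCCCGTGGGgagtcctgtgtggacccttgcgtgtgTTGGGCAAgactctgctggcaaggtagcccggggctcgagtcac
Kcnmb2 intronic summit, chr3:32168261-32168361: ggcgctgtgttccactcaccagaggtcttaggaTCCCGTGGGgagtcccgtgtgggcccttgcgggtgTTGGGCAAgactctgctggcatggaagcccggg
The second Kcnh1 window shared a run of 20 bases with 689 other summits and the Kcnmb2 window with 629. All 3 body summits of Kcnab1 lay on masked repeats and shared such runs with 109 to 292 other summits. How reads with several matches in the genome were placed is not given in the sources used here, and its part in these summits was not tested. Without the summits on masked repeats, 21 members had a body summit, beside 39.0% of all genes, and 11 had a promoter summit, beside 46.0%. Kcnk3 then held 17 body summits.

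CpG content was compared next, since CpG-rich promoters are often open in many tissues. Each promoter was taken from 250 bases before to 50 after the TSS and counted as CpG-rich with a GC content of at least 55% and an observed/expected CpG ratio of at least 0.6. A gene with several TSSs, as 25 of 92 members had, was counted by its most CpG-rich promoter. By this measure 39 of 92 members (42.4%) and 46.3% of all autosomal genes had a CpG-rich promoter. Over all genes, 73.5% of CpG-rich promoters had a promoter summit, and of the 39 CpG-rich members 7 had one (17.9%, Wilson interval 8.98% to 32.7%). The 7 were Kcnab2, Kcng3, Kcnh2, Kcnk2, Kcnk3, Kcnk6 and Kcns3. Of promoters that were not CpG-rich, 23.7% had one over all genes and 6 of 53 among members (11.3%, 5.29% to 22.6%). Members with a CpG-rich promoter and no summit included Kcnc1 with a GC content of 74.7%, Kcna3 with 75.0% and Kcnma1 with 78.0%. Of the 17 voltage-gated genes with a CpG-rich promoter 1 had a summit, Kcnh2.

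**Figure D5:**
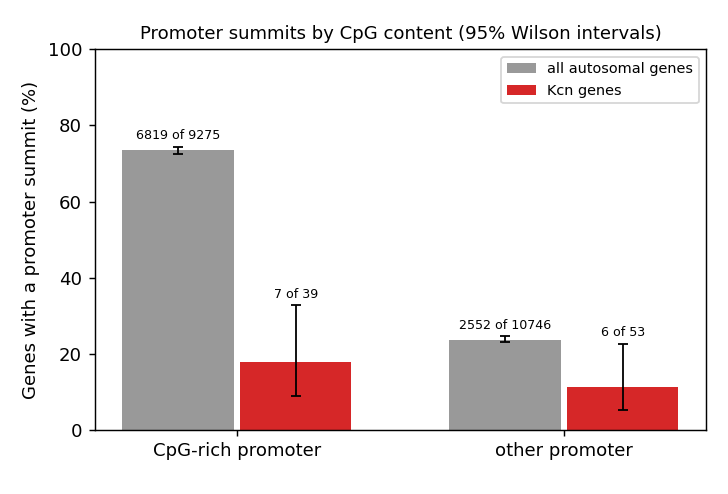
Share of genes with a promoter summit (y axis, percent) for CpG-rich and other promoters, in all autosomal genes (grey) and Kcn genes (red), with 95% Wilson intervals and counts of genes. Kcn genes stand at 17.9% of CpG-rich promoters where all genes stand at 73.5%.

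Short motifs were searched in these 300-base promoters on both strands, and a match at any TSS of a gene was counted. SP (GGGCGG) was found at 59 of 92 members (64.1%) and at 51.8% of all autosomal genes. ETS (CCGGAAGT), NRF1 (GCGCATGCG) and CRE (TGACGTCA) were found at 0 of 92 members, beside 5.84%, 2.58% and 2.77% of all genes. Over all genes, a promoter summit was present at 82.1% of those with ETS, 84.7% with NRF1, 71.5% with CRE and 66.2% with SP. ERR (TCAAGGTCA) and MEF2 (CTATTTATA) were also at 0 members, beside 0.420% and 0.544% of all genes, of which 45.2% and 27.5% had a promoter summit. AP-1 (TGANTCA), EBF (TCCCNNGGG) and C/EBP (TTGCNNAA) were found at 5, 10 and 11 members (5.43%, 10.9% and 12.0%), beside 8.07%, 8.84% and 11.7%. Part of the binding sequence of REST, a repressor of neuronal genes, was searched as TTCAGCACC. It was found at 3 members (3.26%), Kcnk3 among them, beside 0.470% of all genes. These counts are small, no pattern contains another, and a match is no evidence of binding. At the 19 body and promoter summits of Kcnk3, the EBF pattern lay within 100 bp of 5 (26.3%, beside 9.62% of all autosomal summits), the summits 891 bp upstream and 659 bp downstream of the TSS among them. The C/EBP pattern lay at 3, beside 10.6%, and SP at 2, beside 20.5%.

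Summits farther from the Kcn genes were assigned to the nearest mRNA TSS. Within 50 kb of a TSS, 51 of 92 members (55.4%, Wilson interval 45.3% to 65.2%) had a summit, beside 73.0% of all autosomal genes. These made 280 pairs of a member and a summit, and in 202 of them (72.1%) the nearest mRNA TSS was that of another gene, beside 67.4% of such pairs over all genes. A summit within 50 kb with no nearer TSS of another gene was present at 34 of 92 members (37.0%), beside 55.2% of all genes. Of 20 pairs with a score of at least 30, 19 were nearest to another gene, 18 of them within 1 kb of its TSS, and the remaining one was the summit upstream of Kcnk3. Over all genes, 68.2% of pairs with such a score were nearest to another gene. Kcnk7 had 40 summits within 50 kb and 33 of these were nearest to another gene. Kcnk4 had 29, with 28 nearest to another gene, and the strongest of them, with 59.5, lay 225 bp from a TSS of Esrra. Kcnn1 had 22, with 18 nearest to another gene, and the strongest, with 81.9, lay 2 bp from a TSS of Arrdc2. Summits with scores of 55.7, 45.5, 43.7, 40.9, 39.3 and 38.4 near Kcnh2, Kcnh4, Kcnj14, Kcna7, Kcnj4 and Kcnip2 lay at Abcb8, Rab5c, Cyth2, Snrnp70, Ddx17 and Oga. Kcnq1 had one of 58.1 that lay 95 bp from a TSS of Tssc4.

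A large part of the family lay in regions with no summit. Neither the gene body nor the 50 kb around a TSS held a summit at 37 of 92 members (40.2%), beside 25.4% of all autosomal genes. By class these were 14 of 29 voltage-gated, 8 of 15 inward rectifier, 6 of 14 K2P, 4 of 8 Slo and SK, 4 of 10 silent and 1 of 16 auxiliary genes. A further 4 members, Kcnc2, Kcnmb2, Kcnn3 and Kcnq3, had body summits but none within 50 kb of a TSS. The distance from a TSS to the nearest summit had a median of 35596 bp over members and 3039 bp over all genes. It was over 100 kb at 27 members (29.3%), beside 17.2% of all genes. Over 500 kb were Kcnq5 (743 kb), Kcnj2 (598 kb), Kcnt2 (596 kb), Kcnd2 (589 kb) and Kcnh7 (541 kb), of which Kcnq5, Kcnd2 and Kcnh7 are voltage-gated channels best known from neurons.

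Other gene families that set or use the membrane potential were counted by symbol in the same way. Voltage-gated calcium channel genes (Cacn) had a promoter summit at 1 of 25 (Cacnb1) and genes whose symbol starts with Scn, mostly sodium channels, at 2 of 18. These were Scnn1a, an epithelial channel subunit, and Scnm1, which encodes no channel. Hcn pacemaker channels had one at 1 of 4 and genes named Trp or Mcoln, mostly cation channels, at 8 of 25 (32.0%). Among these were the channels Trpm7 and Trpv2, and Trpc4ap, which encodes no channel. Chloride channels and exchangers (Clcn) had one at 4 of 8 and subunits of the sodium pump (Atp1a, Atp1b), which builds the potassium gradient, at 4 of 7 with Atp1b1 among them. The Kctd genes, which encode adaptor proteins with a domain like that of Kcna subunits and no pore, had one at 15 of 21 (71.4%). The share of the Kcn genes lay between those of the Scn and Hcn genes. The Wilson intervals of the Kctd and sodium pump shares did not overlap that of the Kcn share, while those of the Cacn, Scn, Hcn, Trp and Clcn shares did.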

How the data were processed

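ATAC-seq was performed by the authors on nuclei of flash-frozen BAT with the Nextera kit. The authors used Partek Flow, in which BWA placed reads on mm10 and peaks were called with MACS2 (version 2.1.1 in the submitters' processing notes) in ATAC mode. The authors' deposited summit list gives the −log10 of the q-value of each peak over 4 libraries, WT named against Dot1L-BKO, and its lowest score is 1.31. RNA-seq libraries were not analysed here.

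Summits were placed against RefSeq mRNAs (NM accessions) of GRCm38, the same build as mm10. Of the 92 members, 68 had an entry in the RefSeq promoter table. GC content and motifs were computed from the RefSeq genome for all genes. Shares are given with Wilson intervals, and no test was made. All members are counted. Named with values are members with a promoter summit, K2P genes with a summit within 50 kb, those with 2 or more body summits (10 by the rule, but 8 members tie at 2), the 10 with the highest score within 50 kb and a fixed list, but results for some genes are not reported here. The members, lists and motifs were chosen with earlier results of these data known, and the CpG limits and repeat counts after the values were seen. Window functions were tested on planted positions. Scripts ran in Python 3.11.15 with pandas 2.3.3 and numpy 2.4.6, and figures were drawn with matplotlib 3.10.9.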

Additional observations from a re-analysis of the deposited data

How the results depend on the processing

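No paired analysis was possible because peaks carry 1 score each and no library has values of its own. Leaving out single replicates was not run, since it needs such values. The score minimum had the most effect on the counts, since it leaves fewer summits. At a minimum of 5, promoter summits were present at 0 of 8 Slo and SK, 0 of 29 voltage-gated and 1 of 10 silent genes. At a score minimum of 5 and of 10, the Kcn genes with a promoter summit were 5 and 1 (13 with all summits), pore-forming ones 4 and 1, and auxiliary ones 1 and 0. Members with a body summit were 12 and 4 (beside 27.6% and 14.3% of all genes), summits per 100 kb of gene body 0.171 and 0.0476, and 25 members had a summit within 50 kb at a score of at least 10 (beside 49.9% of all genes). Over all autosomal genes the share with a promoter summit was then 37.5% and 24.5%. With a promoter from 1 kb upstream to 100 bp downstream, 8 members had a promoter summit, 6 of them pore-forming, and 36.4% of all genes did. The share over all genes was 42.9% with a window of 500 bp, 51.8% with 5 kb, 43.0% where no TSS of another gene was nearer and 46.0% without masked repeats, which was chosen after seeing the data. Where no other TSS was nearer, 1 auxiliary member had a promoter summit. With a window of 500 bp Kcnk3 had none. The members' share stayed below that of all genes under each of these alternatives, from 1.09% to 19.6%. Among the 13 members with a promoter summit, 45 of 117 counts of promoter summits per gene moved by over 1.5 times.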
